A study of Homo sapiens with 4 samples.

Results

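The genes described here encode mitochondrial ribosomal proteins and were taken as every row of the deposited count table whose symbol begins with MRPL or MRPS followed by a number. The rule found 78 of 20372 rows, which carry 76 symbols, 47 of them MRPL (large subunit, 48 rows) and 29 MRPS (small subunit, 30 rows). RNA-seq was performed on TPC1, a human papillary thyroid cancer cell line that carries a CCDC6-RET fusion, under BGJ398, a kinase inhibitor of the FGF receptors. One group of 2 libraries was harvested after 6 h of BGJ398 and a second group of 2 after 24 h, so both groups were treated and differed by time only. For the dose, 100 micromolar stands in the labels and the same number with nanomolar in the study's methods, and it is not settled here. No untreated or vehicle library was analysed here, hence each comparison is of 24 h with 6 h and not of treated with untreated cells. All values come from 1 cell line, and nothing states that the replicates were separate cultures, hence a p-value covers library-to-library spread that may be technical.

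Mitochondria keep ribosomes of their own, which translate the few messages of the mitochondrial genome, all of them for subunits of the respiratory chain and ATP synthase. The RNA of these ribosomes is made in the organelle, whereas every protein of the large and small subunits is encoded in the nucleus, made in the cytosol and imported. Some of the proteins descend from bacterial ribosomal proteins and others are found only in mitochondria.

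Library totals ran from 24958447 to 26325512 counts, and replicates differed by more than counting noise, with a chi-square statistic per degree of freedom of 32.7 between the 24 h replicates and 16.5 between those at 6 h. The share of counts from the mitochondrial genome was 1.68% and 2.98% at 24 h and 1.09% and 1.40% at 6 h. Of the thyroid markers, PAX8 lay between 957 and 1069 CPM (read counts scaled to a common library size, here with TMM factors), while NKX2-1 and TSHR had 0 counts. The epithelial keratin genes KRT8 and KRT18 were present and EPCAM and CDH1 were close to 0. Of the immune markers, CD68 lay at 166 to 202 CPM at 24 h and 211 to 237 CPM at 6 h, and CD3E had 0 counts. The summed level of 6 fibroblast markers was 12.6 to 13.2 CPM at 24 h and 13.6 to 15.9 CPM at 6 h, with COL1A2, COL3A1 and DCN at 0. In bulk RNA, fewer cells of a type and less RNA per cell cannot be told apart.

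Together the members took 0.431% (replicate 1) and 0.489% (replicate 2) of all counts at 24 h, against 0.346% and 0.386% at 6 h. Of the 78 rows, 75 passed the filter on low counts, 46 MRPL and 29 MRPS. The rows left out had 0 counts in every library and were both entries of MRPL30 (ENSG00000185414 and ENSG00000273155, hg19 chromosome 2) and the second entry of MRPS17 (ENSG00000249773, chromosome 7). A count of 0 allows up to 3 counts, or 0.111 to 0.122 CPM depending on the library, provided that reads could be assigned to the row. These entries overlap one another or a neighbouring row on the genome. How reads of overlapping rows were counted is not given, so the limit may not hold for them.

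Levels were compared between genes as CPM per kb of the canonical transcript, since members differ in length. The median was 41.98 CPM per kb over MRPL members and 31.4 over MRPS members, against 9.07 over all 12549 genes tested. MRPL51, a large-subunit protein found only in mitochondria (ENSG00000111639, hg19 chromosome 12, 6601150 to 6603007), was highest at 152 CPM per kb. It was followed by MRPL33 at 125, MRPL13 at 114, MRPL15 at 106 and the small-subunit gene MRPS21 at 99.6 CPM per kb. At the low end stood MRPS24 at 1.07, MRPL38 at 1.21, MRPS17 at 2.49, MRPL53 at 2.71 and MRPL42 at 4.86 CPM per kb. The first 4 of these are low in counts as well, with at most 134 counts in any library. MRPL42 is low only per length: its canonical transcript is 15557 bases long, and with the median length of its coding transcripts it was at 38.2 CPM per kb, rank 43 of 75. The same change of length moved MRPS23 from 13.03 to 126 CPM per kb and MRPL19 from 7.86 to 85.6, so ranks of members with a long model depend on the transcript chosen.

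The low members share a position in the annotation. Among the 8 rows with a mean under 10 CPM, 7 had at least 90% of their span inside other rows of the table, against 7 of the other 70 rows. MRPL38 overlaps FBF1, MRPS24 lies inside the read-through gene URGCP-MRPS24, MRPL53 overlaps CCDC142, MRPS17 overlaps GBAS and MRPL12 overlaps SLC25A10. The sources used here name neither the read counter nor its strand setting, so the level of these genes is uncertain, and the part of overlap in their low counts was not tested. Overlap did not always go with a low level, since MRPL33, whose span overlaps BRE and RBKS, ranked second.

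**Figure D1:**
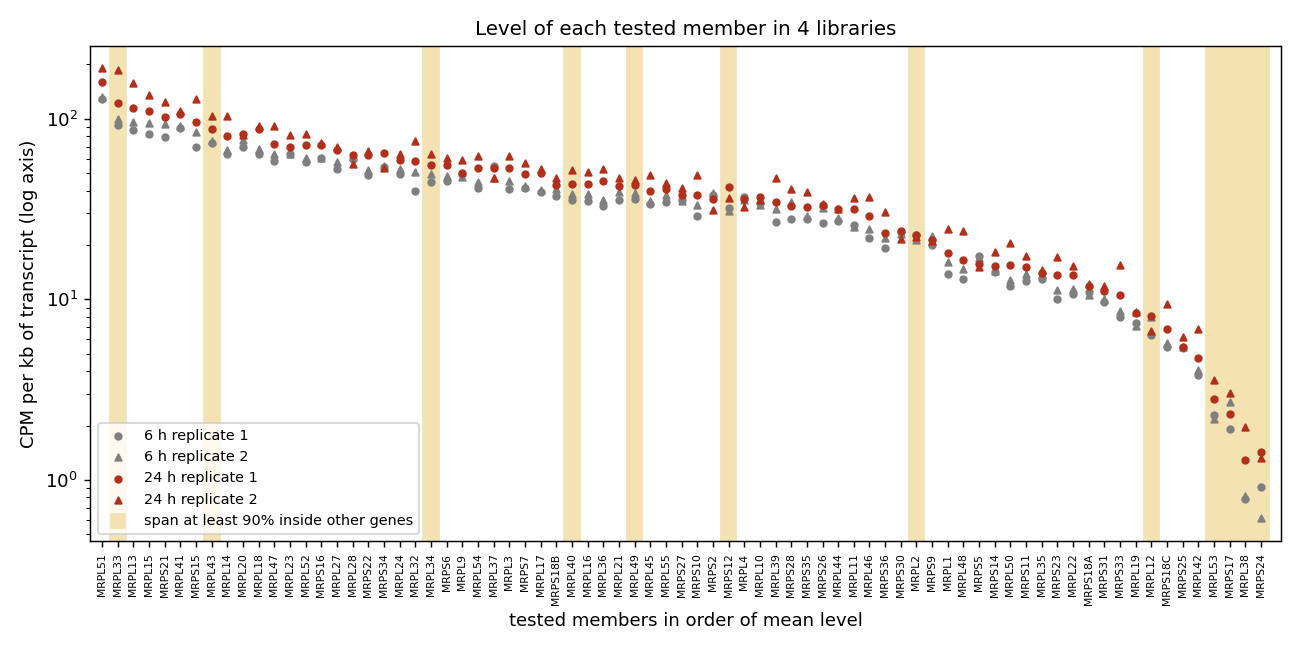
Level of each of the 75 tested members in CPM per kb of canonical transcript (log axis), in order of mean level, with grey points for 6 h, red points for 24 h, circles for replicate 1 and triangles for replicate 2. MRPL51 leads at a mean of 152 CPM per kb, and the lowest 4 members, MRPL53, MRPS17, MRPL38 and MRPS24, lie within the shading that marks spans at least 90% inside other genes.

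The promoters of these genes were examined for the letters bound by 3 factors known to act on nuclear genes of mitochondria. The letters searched were GCGCANGCG for NRF1, CCGGAAG for the ETS family, which includes GABP, and AAGATGGC for YY1, on both strands, from 250 bases before to 50 bases after each start in RefSeq (GRCh38.p14). The promoter table matched 66 of the 75 tested symbols with 82 promoters. The YY1 letters were in 28.0% of member promoters, in 4.72% of 14079 promoters of tested genes and in 2.89% of all 35116 promoters of the table. The ETS letters were in 37.8%, 16.4% and 10.3%, and the NRF1 letters in 15.9%, 12.4% and 7.52%, in the same order. At least 1 of the 3 was in 62.2% of member promoters and in 29.2% of those of tested genes. The YY1 letters began within the first 40 bases of the transcript in 16 of 82 member promoters (19.5%), against 2.88% in tested genes. Such a match is a description of the letters and neither a shown binding site nor a cause.

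**Figure D2:**
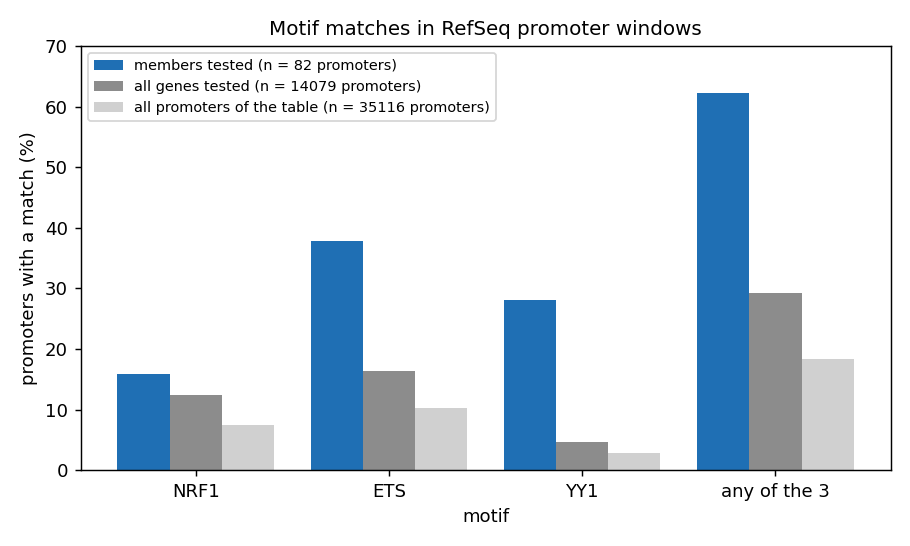
Share of promoter windows (%) that hold the letters of each motif on either strand, for tested members (82 promoters), all tested genes (14079) and all promoters of the RefSeq table (35116). The gap between members and tested genes is widest for YY1, at 28.0% against 4.72%, and narrowest for NRF1, at 15.9% against 12.4%.

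The following stretches of 190 bases, which hold 160 bases before the start and the first 30 bases of the transcript, show how these letters are placed in 4 genes that DESeq2 called higher at 24 h and in MRPS30, which was not called and had a log2 fold change of -0.03. Capitals mark the matches, and all are written 5′ to 3′ on the strand of the gene. MRPL51 (chr12:6493233-6493422, GRCh38.p14, minus strand) holds a pair of ETS matches, at 119 bases before the start (reverse) and at 104 bases before it, and a YY1 match at base 22 of the transcript. MRPS10 (chr6:42217832-42218021, minus strand) holds an ETS match 22 bases before the start and a YY1 match at base 10. In MRPL36 (chr5:1799808-1799997, minus strand) an NRF1 match and a YY1 match, both reverse, lie 109 and 35 bases before the start. MRPS33 (chr7:141014923-141015112, minus strand, the first of 2 starts listed) has an NRF1 match 155 bases before the start and a reverse ETS match at base 1. MRPS30 (chr5:44808787-44808976, plus strand) has a YY1 match at base 14.
MRPL51: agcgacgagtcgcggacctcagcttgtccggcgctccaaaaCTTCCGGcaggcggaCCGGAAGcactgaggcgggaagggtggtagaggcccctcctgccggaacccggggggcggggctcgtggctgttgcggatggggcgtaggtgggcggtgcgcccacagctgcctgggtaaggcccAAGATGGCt
MRPS10: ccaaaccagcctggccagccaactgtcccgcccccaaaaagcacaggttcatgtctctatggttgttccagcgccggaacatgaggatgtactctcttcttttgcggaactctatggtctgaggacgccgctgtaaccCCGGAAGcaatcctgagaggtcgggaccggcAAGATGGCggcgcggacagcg
MRPL36: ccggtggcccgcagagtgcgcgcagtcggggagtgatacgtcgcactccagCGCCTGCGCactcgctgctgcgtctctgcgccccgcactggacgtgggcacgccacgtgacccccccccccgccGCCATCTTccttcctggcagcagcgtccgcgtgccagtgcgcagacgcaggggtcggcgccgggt
MRPS33: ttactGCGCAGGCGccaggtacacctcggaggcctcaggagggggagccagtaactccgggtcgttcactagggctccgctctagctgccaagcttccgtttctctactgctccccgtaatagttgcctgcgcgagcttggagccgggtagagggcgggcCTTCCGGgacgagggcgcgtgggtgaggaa
MRPS30: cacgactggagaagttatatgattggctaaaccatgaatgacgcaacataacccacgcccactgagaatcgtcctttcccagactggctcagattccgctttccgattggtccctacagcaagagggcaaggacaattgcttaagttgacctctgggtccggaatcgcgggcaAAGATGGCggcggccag

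At 24 h the members were on the whole higher than at 6 h: 68 of the 75 tested had a log2 fold change above 0, against 50.0% of all genes tested. The median log2 fold change was 0.34, with a range of -0.19 to 1.01, whereas the median over all genes tested was 0.00. No member passed the edgeR quasi-likelihood test with Benjamini-Hochberg adjustment over all genes (smallest adjusted p = 0.173), nor did any other gene, a background of 0.0%. At an unadjusted p under 0.05 stood 46 members, all higher, where 13.9% of genes tested were higher at that level. DESeq2 gave 66 members an adjusted p and called 15 of them higher and 0 lower. Of the 7410 genes with an adjusted p it called 5.59% higher and 196 lower. In 63 members (84.0%) both 24 h libraries lay above both 6 h libraries, against 31.3% of genes. In 2 members, MRPS2 and MRPS5, both lay below, against 3957 of 12549 genes tested.

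These differences moved with transcript features and with single libraries. A smooth trend on transcript length and GC content was removed from each library. It was fitted to the log2 CPM of each gene minus its mean over the 4 libraries. With this trend removed the median of the members was 0.11, with 56 of 75 above 0. Members are short, with a median transcript of 1224 bases against 3375 over all genes. The DESeq2 calls numbered 26 without 24 h replicate 1, where 16.7% of all genes with an adjusted p were called. They numbered 0 without 24 h replicate 2 (0.0064% of genes), 0 without 6 h replicate 1 (0.0%) and 0 with 6 h replicate 2 left out (4.27%). In such a fit 1 time holds a single library, which is taken to vary like the pair left at the other time. The fit without 6 h replicate 2 gave an adjusted p to 3118 genes only, against 7410 with all 4 libraries. How many members were among them is not given here, so its 0 calls may not cover all 75 members. Without 24 h replicate 2 the median of all members was 0.24. In the 15 members called by DESeq2 the edgeR values were 0.27 to 0.41 without that library, 0.46 to 0.94 without 24 h replicate 1 and 0.09 to 0.59 with the trend removed. Removal of the trend put 12 of the 68 members above 0 below it: MRPL2, MRPL12, MRPL20, MRPL21, MRPL35, MRPL44, MRPL47, MRPS14, MRPS28, MRPS31, MRPS34 and MRPS36. The part of transcript length, GC content and single libraries in the difference was not tested.

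**Figure D3:**
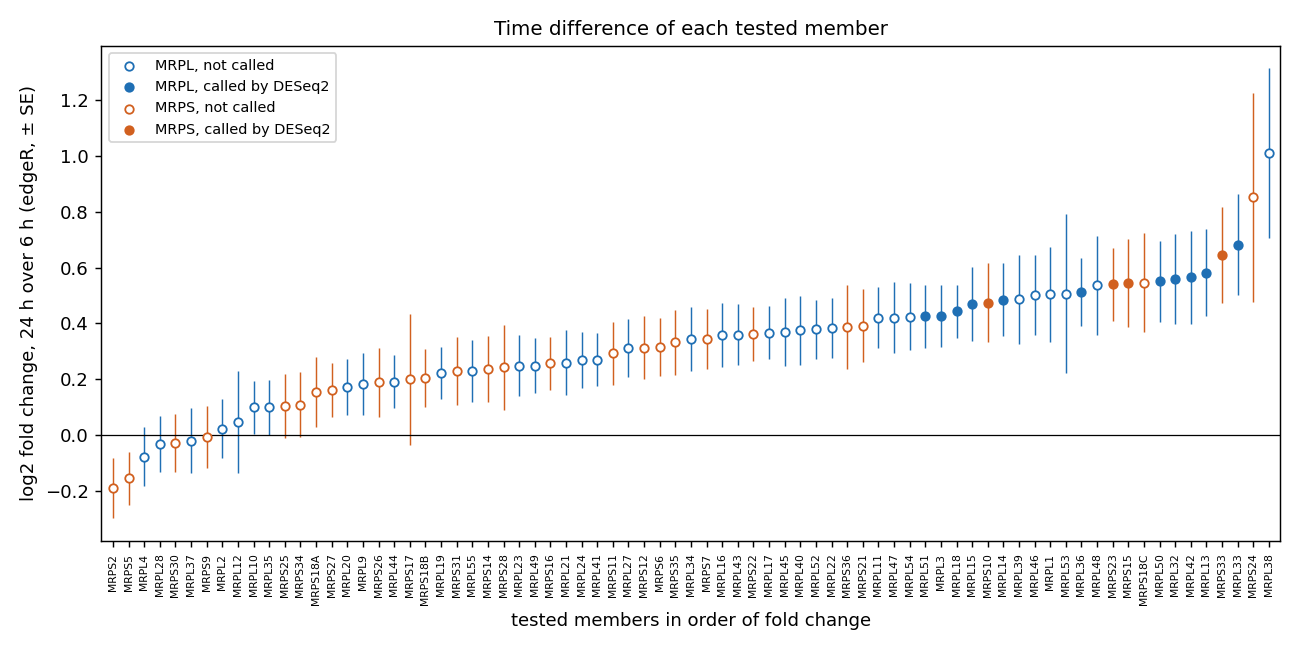
Log2 fold change of 24 h over 6 h for each of the 75 tested members, from edgeR with an SE derived from its test, in order of size. Blue marks MRPL, orange MRPS, and filled points the 15 members called higher by DESeq2. Values run from -0.19 for MRPS2 to 1.01 for MRPL38, and 68 of 75 points lie above 0.

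The 4 libraries had the same order in most members. In 52 of 75 the level was highest in 24 h replicate 2, then in 24 h replicate 1, 6 h replicate 2 and 6 h replicate 1, an order found in 20.8% of all genes tested. The highest library was 24 h replicate 2 in 61 members (39.2% of all genes) and the lowest was 6 h replicate 1 in 57 (35.3%). The 24 h libraries thus differed from each other in the direction in which the times differed: the median log2 difference of replicate 2 from replicate 1 over members was 0.20 at 24 h, positive in 61, and 0.09 at 6 h, positive in 60. The time difference taken within replicate number 1 had a median of 0.29 and within number 2 of 0.37. Across the 75 members the fold change and the replicate difference at 24 h had a Spearman correlation of 0.79, as a description only, since both contain the same 24 h libraries. Over all 12549 genes tested the time difference and the replicate difference, each averaged over libraries, had a correlation of 0.67.

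**Figure D4:**
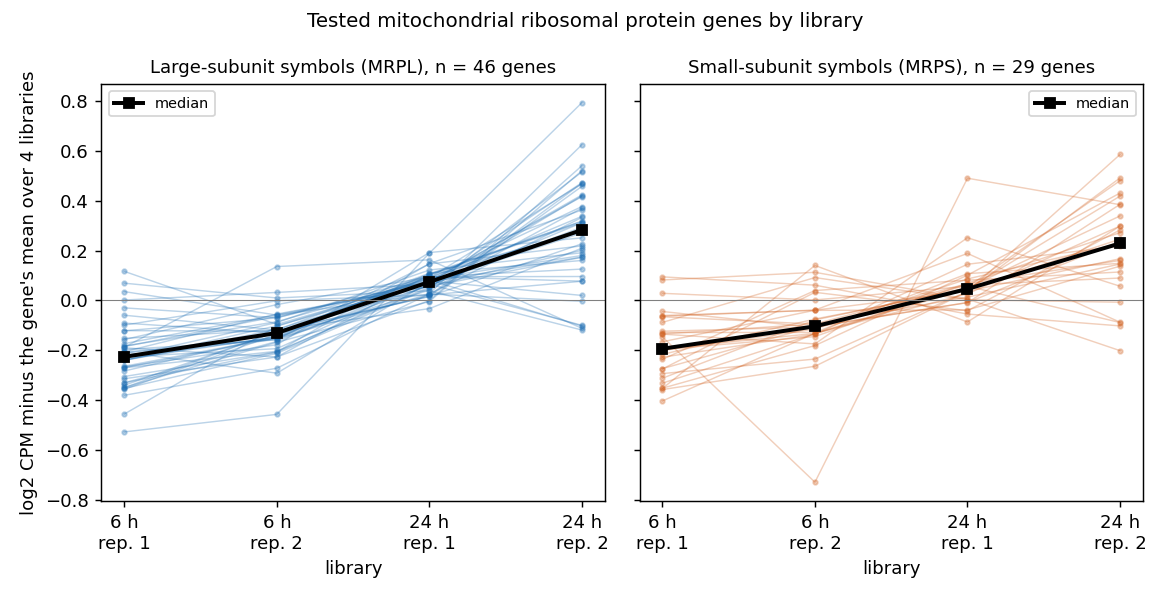
Log2 CPM of each tested member minus its own mean over the 4 libraries, with MRPL on the left (46 genes) and MRPS on the right (29 genes); thin lines join the values of 1 gene and black squares are medians. The medians of both subunits are lowest in 6 h replicate 1 and highest in 24 h replicate 2. That library was highest in 61 of 75 members, against 39.2% of all genes tested.

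Among the large-subunit proteins with a bacterial counterpart, 29 members were tested and 27 were higher, with a median of 0.34. MRPL33 (ENSG00000243147, hg19 chromosome 2, 27994584 to 28210954), a small protein of the large subunit, was at 62.3 and 94.4 CPM at 24 h and at 47.0 and 50.7 CPM at 6 h. The times did not overlap, though the 24 h libraries lay further apart than the times did at their nearest. MRPL33 rose by DESeq2 (adjusted p = 0.0177), with a log2 fold change of 0.68 ± 0.18 (SE, edgeR), and had a value of 0.13 after removal of the length and GC trend. MRPL32, another small protein of this kind, which is cut to its mature form by a mitochondrial protease, was at 49.9 and 64.8 CPM at 24 h and 34.1 and 43.6 CPM at 6 h (0.56 ± 0.16, DESeq2 adjusted p = 0.0330). MRPL36 was at 27.5 and 31.9 CPM against 20.1 and 21.5 CPM (0.51 ± 0.12, DESeq2 adjusted p = 0.0392). With the trend removed MRPL32 had a value of 0.17 and MRPL36 one of 0.19. In both genes the 24 h libraries lay above those at 6 h (31.3% of all genes). The promoter of MRPL36 is the one printed above with NRF1 and YY1 letters.

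MRPL13 and MRPL15 are, in CPM, among the most abundant members. MRPL13 was at 144 and 199 CPM at 24 h and 109 and 120 CPM at 6 h (0.58 ± 0.16, DESeq2 adjusted p = 0.0196). MRPL15 was at 191 and 233 CPM against 142 and 165 CPM (0.47 ± 0.13, DESeq2 adjusted p = 0.0305). Both rose without overlap of the times (31.3% of all genes), and in both 24 h replicate 2 was the highest library. With the trend removed their values were 0.18 and 0.29. MRPL14, which in the assembled ribosome lies where the subunits meet, was at 76.5 and 98.6 CPM against 61.1 and 64.0 CPM (0.49 ± 0.13, DESeq2 adjusted p = 0.0344). MRPL3, whose bacterial counterpart lies near the peptidyl transferase centre, was at 91.3 and 106 CPM against 69.7 and 76.9 CPM (0.43 ± 0.11, DESeq2 adjusted p = 0.0413). In these genes too the times were apart and both were called, with values of 0.30 and 0.18 after removal of the trend.

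MRPL18 had the smallest unadjusted p among the members in the edgeR quasi-likelihood test (0.00184), although its adjusted p was 0.173. It belongs to the central protuberance, the part of the large subunit above the cleft, and was at 85.0 and 88.5 CPM at 24 h and 61.8 and 65.8 CPM at 6 h (0.44 ± 0.10, or 0.18 with the trend removed, DESeq2 adjusted p = 0.0270). For the central protuberance a list of 5 members was taken, which may not be complete: MRPL18, MRPL38, MRPL40, MRPL46 and MRPL48. All 5 were higher without overlap of the times, against 31.3% of genes so placed. Their median was 0.50, or 0.32 without 24 h replicate 2. Of these DESeq2 called MRPL18 alone. The largest value of all members, 1.01 ± 0.30 in MRPL38 (ENSG00000204316, chromosome 17, 73894724 to 73905899), rests on few reads, with 44 and 66 at 24 h against 26 and 30 at 6 h, and DESeq2 gave it no adjusted p.

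Of the large-subunit proteins found only in mitochondria, 17 of 19 were higher, with a median of 0.38, or 0.25 without 24 h replicate 2. MRPL42 was at 73.6 and 107 CPM at 24 h and 59.2 and 62.9 CPM at 6 h (0.57 ± 0.17, DESeq2 adjusted p = 0.0291). MRPL50 was at 51.8 and 68.8 CPM against 39.4 and 42.9 CPM (0.55 ± 0.14, DESeq2 adjusted p = 0.0270). MRPL51 was at 143 and 171 CPM against 115 and 118 CPM (0.43 ± 0.11, DESeq2 adjusted p = 0.0373). All 3 rose with no overlap of the times (31.3% of all genes). DESeq2 had called all 3 higher, so this adds no separate support. After removal of the length and GC trend their values were 0.46, 0.25 and 0.09. That of MRPL42 rests on a canonical transcript of 15557 bases, whereas its median coding transcript has 1983 bases. The same removal left a median of 0.06 for the large-subunit proteins with a bacterial counterpart and 0.19 for those found only in mitochondria. It left 0.29 for the list of the central protuberance.

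Proteins of the stalks and of the exit of the peptide tunnel were described as well. The stalk list holds the L7/L12 stalk, which binds translation factors, and MRPL1, of the L1 stalk on the other side. All 6 tested stalk proteins were above 0, with a median of 0.42, and DESeq2 called 0 of the 3 to which it gave an adjusted p. MRPL12, the stalk protein that is also known to bind the mitochondrial RNA polymerase, was at 8.16 and 6.75 CPM at 24 h and 6.40 and 8.02 CPM at 6 h, so its times overlapped (0.05 ± 0.18). All 6 proteins at the tunnel exit were higher without overlap (31.3% of all genes), with a median of 0.37, or 0.23 without 24 h replicate 2, and DESeq2 called 0 of them (5.59% of all genes). With the trend removed the medians were 0.12 for the stalk and 0.11 for the tunnel exit. MRPL45, which anchors the ribosome at the inner membrane, was at 61.6 and 76.2 CPM against 52.4 and 54.4 CPM (0.37 ± 0.12, DESeq2 adjusted p = 0.0988), with values of 0.21 without 24 h replicate 2 and 0.15 with the trend removed.

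A few large-subunit genes lay at or below 0. MRPL4 was at 43.96 and 39.4 CPM at 24 h and 44.9 and 43.1 CPM at 6 h (-0.08 ± 0.11). MRPL28 was at 95.8 and 85.4 CPM against 91.6 and 93.6 CPM (-0.03 ± 0.10). MRPL37 was at 78.8 and 69.4 CPM against 80.8 and 69.7 CPM (-0.02 ± 0.12). In these 3 genes, and in MRPL2 (0.02 ± 0.11), a protein near the catalytic centre, the SE exceeded or equalled the value, and in the first 3 the library 24 h replicate 2 was the lowest of the 4.

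In the small subunit the bacterial type had a median of 0.30 (13 of 16 higher) and the type found only in mitochondria one of 0.22 (10 of 10 higher), or 0.13 and 0.07 with the length and GC trend removed. MRPS33 (ENSG00000090263, chromosome 7, 140705854 to 140715028), of the second type, was at 44.4 and 65.03 CPM at 24 h and 33.8 and 36.1 CPM at 6 h (0.65 ± 0.17, DESeq2 adjusted p = 0.0209). MRPS23, of the same type, was at 76.7 and 96.4 CPM against 56.0 and 63.1 CPM (0.54 ± 0.13, DESeq2 adjusted p = 0.0218). Both rose. Removal of the length and GC trend left values of 0.56 and 0.59, which rest on canonical transcripts of 4210 and 5609 bases, whereas the median coding transcripts have 744 and 580 bases. MRPS15 was at 91.0 and 122 CPM against 66.3 and 80.0 CPM (0.54 ± 0.16, DESeq2 adjusted p = 0.0289). MRPS10, whose promoter is printed above, was at 79.1 and 102 CPM against 60.8 and 69.8 CPM (0.47 ± 0.14, DESeq2 adjusted p = 0.0436). These are proteins of the bacterial type, and both rose without overlap (31.3% of all genes). After removal of the trend their values were 0.33 and 0.25.

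MRPS2 and MRPS5, both of the bacterial type, were the members below 0 without overlap, as were 3957 of 12549 genes tested. MRPS2 (ENSG00000122140, chromosome 9, 138391830 to 138396519) was at 52.4 and 45.4 CPM at 24 h and 55.3 and 56.4 CPM at 6 h, with a log2 fold change of -0.19 ± 0.11 (DESeq2 adjusted p = 0.353). MRPS5 was at 51.8 and 50.1 CPM against 57.5 and 56.1 CPM, with -0.16 ± 0.09 (DESeq2 adjusted p = 0.425). Neither passed either test. MRPS9 was at 29.96 and 29.8 CPM against 28.1 and 31.9 CPM, a difference of -0.01 ± 0.11 on the log2 scale with overlapping times. MRPS24, counterpart of a bacterial protein of the mRNA entry site, had 24 and 22 reads at 24 h against 15 and 11 at 6 h (0.85 ± 0.37), and DESeq2 gave it no adjusted p. MRPS17 had 104 and 134 reads at 24 h against 84 and 130 at 6 h, with overlap (0.20 ± 0.24). MRPS12, the protein of the decoding centre, was at 39.99 and 34.9 CPM against 30.6 and 29.8 CPM (0.31 ± 0.11, DESeq2 adjusted p = 0.176), and here 24 h replicate 1 was the higher of its pair. MRPS21, the small-subunit gene of highest level per length, was at 110 and 135 CPM against 85.9 and 101 CPM (0.39 ± 0.13, DESeq2 adjusted p = 0.0761). With the trend removed MRPS12 was at 0.17 and MRPS21 at 0.14, and MRPS12 was at 0.20 without 24 h replicate 1 and MRPS21 at 0.24 without 24 h replicate 2.

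Some MRPS symbols do not name small-subunit proteins. MRPS30, which sits in the large subunit, was at 39.6 and 35.8 CPM at 24 h and 38.8 and 38.1 CPM at 6 h (-0.03 ± 0.10), with overlap. The S18 genes are paralogs: MRPS18C (0.55 ± 0.18) and MRPS18B (0.20 ± 0.10) encode small-subunit proteins, and MRPS18A (0.15 ± 0.12) encodes one of the large subunit. MRPS18C was at 10.7 and 14.6 CPM at 24 h and 8.48 and 8.83 CPM at 6 h, and MRPS18A, nearer to level, at 13.8 and 14.1 CPM against 12.8 and 12.3 CPM. MRPS18C had a value of 0.30 without 24 h replicate 2 and 0.12 with the trend removed, which left 0.07 in MRPS18B and 0.03 in MRPS18A. All 3 paralogs were higher without overlap (31.3% of all genes), and none was called by DESeq2, which gave an adjusted p to MRPS18B only. MRPS36, now held to be a part of the oxoglutarate dehydrogenase complex and not of the ribosome, was at 30.5 and 40.1 CPM against 25.4 and 28.6 CPM (0.39 ± 0.15), or -0.13 after removal of the length and GC trend.

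The large and small subunits were then set side by side. The median log2 fold change was 0.37 over MRPL members (43 of 46 higher, 41 without overlap, 11 called by DESeq2) and 0.26 over MRPS members (25 of 29 higher, 22 without overlap, 4 called). Of all genes tested 31.3% were higher without overlap, and of those with an adjusted p DESeq2 called 5.59% higher. The interquartile range ran from 0.23 to 0.49 in MRPL and from 0.16 to 0.39 in MRPS, so the ranges overlapped. After removal of the length and GC trend the medians were 0.13 and 0.06. Grouped by structure, with MRPS30 and MRPS18A in the large subunit and MRPS36 left out, the medians were 0.37 and 0.27. They were 0.12 and 0.09 with the trend removed. The summed MRPL level was 2765 and 3196 CPM at 24 h and 2274 and 2402 CPM at 6 h, and the summed MRPS level 1520 and 1703 CPM against 1288 and 1372 CPM. The ratio of the sums was 1.82 and 1.88 at 24 h and 1.77 and 1.75 at 6 h. The ratio did not overlap between times, but the difference was small, with a mean ratio at 24 h that was 1.05 times that at 6 h. With MRPS30 and MRPS18A counted to the large subunit the ratio was 1.92 and 1.96 at 24 h. At 6 h it was then 1.88 and 1.86. With 2 libraries against 2 an exact permutation test cannot go below p = 0.33, so none was made.

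Fold changes of members were set against transcript features. The fold change of the 75 members had a Spearman correlation of -0.32 with GC content and -0.16 with length, against -0.34 and -0.31 over 12479 genes measured in the same libraries. The 37 members of lower GC had a median of 0.38 and the other 38 of 0.28. The median GC content of the members was 48.0%, against 48.1% in all genes tested. Members with and without the letters of each motif had medians of 0.38 and 0.32 for YY1, 0.39 and 0.28 for ETS and 0.37 and 0.34 for NRF1.

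Members often have a neighbour that starts back to back with them. A coding gene on the other strand began within 1000 bases upstream of 24 of the 75 tested members (32.0%), against 13.3% of 12360 tested genes with a coding model in GENCODE v44 (GRCh38). MRPL46 and MRPS11 form such a pair, 320 bases apart, with values of 0.50 and 0.29. For 20 members the partner was itself tested and no member: the median log2 fold change was 0.35 over these members and 0.01 over their partners, of which 10 were above 0. MRPL14 stood at 0.49 and its partner TMEM63B at -0.41, MRPL43 at 0.36 and TWNK at -0.31, and MRPL51 at 0.43 and NCAPD2 at -0.33. In contrast MRPL47 (0.42) and NDUFB5 (0.61), a gene of respiratory complex I, were both above 0, although MRPL47 was at -0.01 with the trend removed. Also both above 0 were MRPL49 (0.25) and FAU (0.33), which encodes a protein of the cytosolic ribosome. In 15 of the 20 pairs the member had the higher value.

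The other genes of mitochondrial translation were taken as lists. Subunits of the ribosome that carry other symbols were higher in 8 of 8, with a median of 0.26. Of these MRP63 rose by DESeq2 at 49.2 and 58.4 CPM against 37.8 and 39.4 CPM (0.48 ± 0.12, adjusted p = 0.0350). CHCHD1, a small-subunit protein, was at 73.6 and 94.5 CPM against 59.2 and 64.4 CPM, higher without overlap (0.44 ± 0.13, DESeq2 adjusted p = 0.0537). ICT1, a peptidyl-tRNA hydrolase built into the large subunit, had a value of 0.50 ± 0.19, and DAP3, a GTP-binding protein of the small subunit, one of 0.04 ± 0.10. Translation factors were above 0 in 16 of 18 (median 0.17), with SLIRP, an RNA-binding protein that stabilises mitochondrial messages, at 0.49 ± 0.15 and MRRF, the ribosome recycling factor, at 0.26 ± 0.11. With the length and GC trend removed this median was 0.01, with 10 of 18 above 0, and leaving out 1 library it was 0.10 (6 h replicate 1) to 0.28 (24 h replicate 1). Assembly and rRNA modification factors were above 0 in 14 of 23 (median 0.06), with FASTKD2 at 0.40 ± 0.11 and RBFA, which acts on the small subunit, at 0.46 ± 0.15. Their median was 0.02 with the trend removed, and leaving out 1 library gave 0.02 (6 h replicate 1), 0.05 (24 h replicate 1), 0.10 (24 h replicate 2) and 0.17 (6 h replicate 2).

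Mitochondrial aminoacyl-tRNA synthetases, which charge the tRNAs of the organelle, were above 0 in 9 of 19 (median -0.01, or -0.07 to 0.03 when 1 library was left out), led by RARS2 (0.33 ± 0.11) and NARS2 (0.26 ± 0.12). Genes of mitochondrial transcription and RNA processing were above 0 in 10 of 16 (median 0.19), among them the elongation factor TEFM (0.53 ± 0.17) and SSBP1 (0.40 ± 0.13), which binds single-stranded mitochondrial DNA. The median of that list was 0.04 without 24 h replicate 2, 0.06 without 6 h replicate 1 and -0.02 with the trend removed. Of 8 tested nuclear regulators 1 was above 0 (median -0.12), and the median was -0.05 with the trend removed. Leaving out 24 h replicate 1 made this median -0.23 and leaving out 6 h replicate 2 made it -0.19, whereas it was -0.07 in the absence of 6 h replicate 1 and -0.04 in that of 24 h replicate 2. PPRC1, a coactivator, was at 28.9 and 27.03 CPM against 37.9 and 32.9 CPM (-0.34 ± 0.12) and GABPB1, a subunit of GABP, at 43.4 and 45.2 CPM against 38.1 and 37.6 CPM (0.23 ± 0.10). Of the factors whose letters were searched, NRF1 was at -0.12 ± 0.13 and YY1 at -0.15 ± 0.10. GABPA, the other GABP subunit on the list, was at -0.01 ± 0.10. In these 3 lists neither DESeq2 nor edgeR called a gene at the adjusted threshold. The messages that these ribosomes translate, the 13 of the mitochondrial genome, were above 0 in 13 of 13 with a median of 0.93, called by neither tool, and 81 of 81 tested cytosolic ribosomal protein genes were above 0 with a median of 0.46, of which DESeq2 called 43 of the 72 that had an adjusted p (5.59% of all genes). The mitochondrial-encoded median was 0.39 without 24 h replicate 2, 1.33 without 24 h replicate 1 and 0.46 with the trend removed, and the cytosolic one 0.27 without 24 h replicate 2 and 0.19 with the trend removed.

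**Figure D5:**
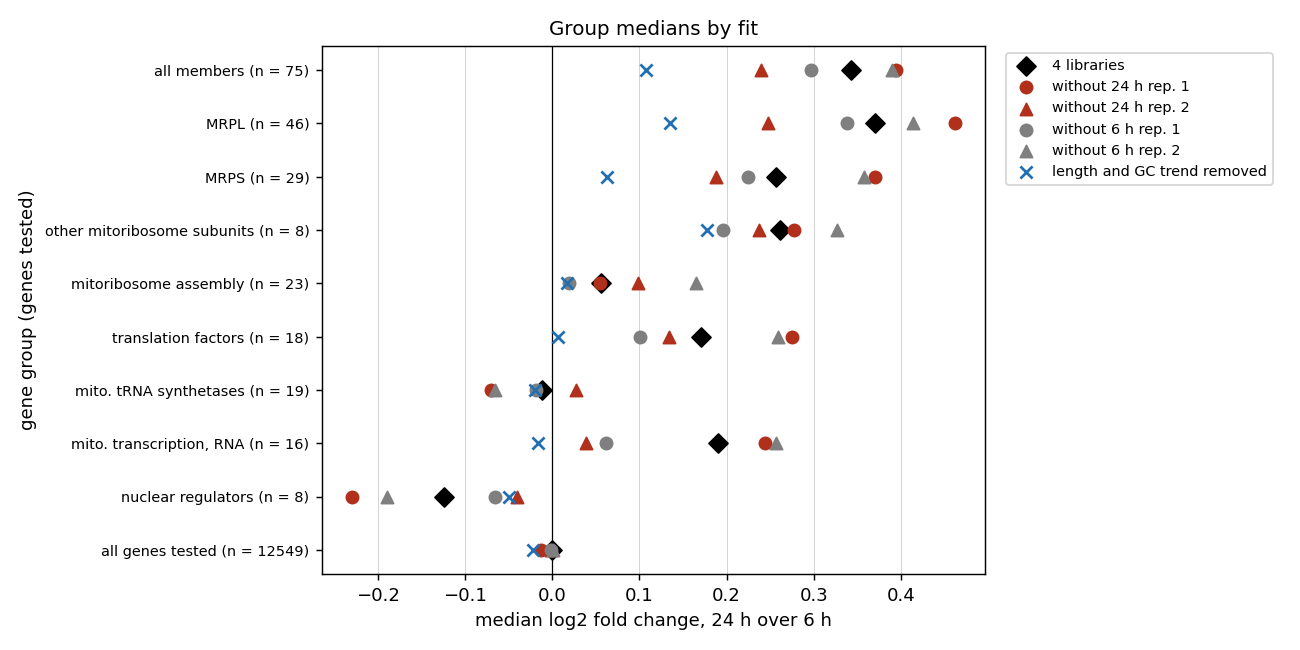
Median log2 fold change of 24 h over 6 h for the members and for other lists (number of genes tested in brackets), from all 4 libraries (diamonds), without each library in turn (circles and triangles) and with the length and GC trend removed (crosses). The medians of all members, MRPL and MRPS stay above 0 in each fit shown, from 0.11 to 0.39 for all members, and that of all genes tested stays near 0.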

How the data were processed

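RNA-seq of TPC1 cells gave 4 libraries, 2 at 6 h and 2 at 24 h of BGJ398. The authors deposited 1 table of read counts, whole numbers per gene without normalization, with hg19 coordinates. The submitters' processing notes name STAR 2.3, hg19 and DESeq2. Reads were single-end by the labels, paired-end with a later STAR by the methods. Read counter, annotation and strand setting: not given in the sources used here, so overlapping genes and close copies may share reads.

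Counts were tested with edgeR 4.0.16 (quasi-likelihood test, TMM factors, filterByExpr, 12549 genes) in R 4.3.3, with Benjamini-Hochberg adjustment over all genes and a threshold of 0.05; DESeq2 1.42.0 was the alternative tool. Fold changes are log2 of 24 h over 6 h, from edgeR. Their SE was derived from the same test, as the absolute log2 fold change over the square root of the F statistic. It is not the SE of DESeq2, whose adjusted p stands beside it. Lengths, GC and starts came from GENCODE v44 (GRCh38) by gene identifier, or by symbol for 2 members, and a smooth length and GC trend was fitted with mgcv 1.9.3. Coordinates of genes are hg19 and those of promoters GRCh38.p14 (RefSeq). Steps were tested on simulated data.

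The members, the gene lists and the naming rule were chosen with earlier results of these data known. Members were named if called, if among the 4 largest or smallest fold changes of a subunit or the 5 highest or lowest levels, by role, or if left out by the filter; each other list gave the 2 genes of smallest p and DAP3 and ICT1. Regulators, neighbours and members of a part of the ribosome named beside these were chosen after their values were seen. Alternatives were other size factors, other filters, each library left out, the replicate number as a block, removal of mitochondrial-encoded and ribosomal protein genes, and removal of the length and GC trend. DESeq2 without each library and the median transcript length were chosen after seeing the data.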

Additional observations from a re-analysis of the deposited data

How the results depend on the processing

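The count of 0 members called by edgeR stayed 0 under the size factors of DESeq2, without a filter, with a mean of at least 10 CPM, without mitochondrial-encoded and ribosomal protein genes and with the length and GC trend removed. It was 15 with DESeq2 (610 of all genes) and, leaving out 1 library, 0 to 39 with edgeR (39 without 24 h replicate 1, where 24.5% of all genes were called, and 13 without 6 h replicate 2, where 6.95% were) and 0 to 26 with DESeq2 (16.7% of all genes in the last). Nothing says what a replicate number shares, so no pairing was taken. Deviations from the mean of each time had a correlation of 0.43 across genes between libraries of the same number. With 2 libraries per time, replicate 2 deviates exactly opposite to replicate 1, so this is 1 value and not 2. With the replicate block edgeR called 52 members, all higher, and 36.4% of all genes. With the trend removed as well it called 26 members, 22 of them higher and the others lower, and 26.4% of all genes. The block left the medians near their values (0.34, MRPL 0.37, MRPS 0.26). With the trend removed the medians were 0.108 for all members, 0.135 for MRPL and 0.0623 for MRPS, or 0.107, 0.135 and 0.0636 with the block. Leaving out each library they were 0.24 to 0.39 for all members, 0.25 (without 24 h replicate 2) to 0.46 for MRPL and 0.19 to 0.37 (without 24 h replicate 1) for MRPS. The ratio of large to small subunit at 24 h over that at 6 h was 1.05, and 1.11 with medians of CPM per kb, where it fell to 1.01 once 24 h replicate 2 was dropped and stood at 1.21 with 24 h replicate 1 dropped instead. The cause of these shifts was not tested, and with 1 library left out the spread comes only from the pair left at the other time.

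With the trend removed 12 members turned below 0, as listed in the results, among them MRPL47 at -0.007. Among the genes named by the rule and the lists, signs turned in that fit (with the block in brackets) for transcription and RNA processing, at -0.017 (-0.017), DAP3 -0.089 (-0.089), MRPL12 -0.070 (-0.076), MRPL2 -0.106 (-0.106), MRPS36 -0.129 (-0.128), SLIRP -0.012 (-0.010) and SSBP1 -0.082 (-0.082). With a mean of at least 10 CPM the synthetase median was 0.057 and MRPS9 0.012. Leaving out 1 library, signs also turned in the synthetases (-0.070 to 0.027), MRPL12 (-0.106 to 0.217), MRPL2 (-0.027 to 0.069), MRPL28 (-0.125 to 0.048), MRPL37 (-0.127 to 0.087), MRPS9 (-0.096 to 0.083), MRPS17 (-0.024 to 0.469) and MRPS30 (-0.112 to 0.042). With 2 libraries per time, depth was no limit for most members, but MRPL38, MRPS24, MRPL53, MRPS17 and MRPL12 had few counts.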
